A study of Astatotilapia calliptera and Haplochromis burtoni and Pundamilia nyererei with 40 samples.

Results

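Pao elements are a superfamily of long terminal repeat (LTR) retrotransposons, and their transcripts were followed here in gonads of Lake Malawi cichlids. The members were all rows of the transposable element (TE) count tables whose annotation gives the superfamily Pao, whatever their level. The table made with a curated TE library held 83 such rows among 557 TE rows, of which 350 belonged to the LTR class. The rows came from 43 numbered families. In 40 of them the coding interior (INT) and the terminal repeat (LTR) were counted as separate rows, Pao-47 had an INT row only, and Pao-31 and Pao-38 had 1 undivided row each. That makes 41 INT rows, 40 LTR rows and 2 undivided rows. Tables with automatically named families held 5 further Pao rows for *Astatotilapia calliptera*, 1 for *Astatotilapia burtoni* and 7 for the Nile tilapia *Oreochromis niloticus*, while that of *Pundamilia nyererei* held none, so that 96 of 3653 TE rows in all were Pao.

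A Pao element, also called BEL/Pao, carries the gag and pol genes between a pair of identical repeats. Transcription starts inside the upstream repeat and ends in the downstream one, so a full transcript holds the interior and only part of each repeat, and the copy made from it by reverse transcription is inserted elsewhere in the genome. Recombination between the repeats of an inserted copy removes the interior and leaves a solo LTR, which can still be transcribed from within or from a neighbouring promoter. In the animal germline such elements are targets of Piwi-interacting RNAs (piRNAs), small RNAs that guide Piwi proteins to matching transcripts. The counts sum all copies of a family and do not separate an element's own transcript from a longer transcript that runs through it.

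The Lake Malawi samples were testes of *Tropheops* sp. 'mauve' (TM, 4 libraries), testes of *Maylandia zebra* (MZ, 2 libraries), and testes and ovary of *A. calliptera* (AC, 4 libraries each). Samples from elsewhere were testes and ovary of *A. burtoni* (AB, 4 and 3 libraries) and of *O. niloticus* (ON, 3 and 3 libraries). The paper takes AB to represent Lake Tanganyika and ON as the outgroup. All fish were labelled wild-type with no treatment, and no ages were given. TM and AC fish were raised in the study's tanks and MZ males came from a commercial supplier, so that species and source cannot be told apart for MZ. Reads of TM and MZ were aligned to the AC genome, and the effect of this on their counts was not tested.

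Between 20973400 and 26742599 counts were assigned per Lake Malawi library. No pair of replicates was a duplicate. The closest pair was TM testes replicates 1 and 3. Their counts differed by a chi-square per degree of freedom of 6.87, against 26.7 to 62.4 for the other TM pairs. AC ovary replicate 1 stood apart in its scaling factor, which was 0.621 against 0.931 to 1.17 in the other 13 libraries. Levels are given as counts per 1000000 assigned counts, divided by this factor (CPM). The labelled tissues were checked against marker genes. cyp19a1a, the ovarian aromatase that makes oestrogen, lay at 0.15 to 0.76 CPM in AC testes and at 59.0 to 546 CPM in AC ovary. The summed testes marker list lay at 230 to 1345 CPM in AC testes and 18.3 to 32.9 CPM in AC ovary. Genes of the early oocyte were abundant in both gonads, and the 6 ovary markers found summed to 2132 to 3882 CPM in AC testes and 3030 to 7541 CPM in AC ovary. The testes marker sum varied between testes of 1 species, and was lowest in AC testes replicate 4 (230 CPM) and MZ replicate 1 (287 CPM). The 3 white blood cell markers found summed to 6 to 9.23 CPM in TM testes and 21.8 and 259 CPM in MZ testes, against 380 to 579 CPM in AC testes and 384 to 717 CPM in AC ovary. In AC most of that sum was lcp1, an actin-bundling gene of white blood cells. It lay at 1.16 to 1.95 CPM in TM testes and 1.22 and 202 CPM in MZ testes, against 369 to 552 CPM in AC testes. The others did not follow it in MZ. There ptprc lay at 19.6 and 55 CPM against 3.46 to 34.6 CPM in AC testes, and mpx at 0.953 and 1.36 CPM against 0.571 to 2.1 CPM in AC testes. In TM testes ptprc lay at 4.07 to 7.24 CPM and mpx at 0.159 to 0.845 CPM. Neither passed the test against AC testes (log2 fold change -1.16, adjusted p = 0.26, and -1.27, adjusted p = 0.118, edgeR). The part of cell make-up in the Pao results was not tested, and in such bulk tissue fewer cells of a type and less RNA per cell cannot be told apart.

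Pao transcripts were a small part of the gonad transcriptome. They took 0.0536% ± 0.00578 of assigned counts in AC testes and 0.0167% ± 0.00541 in AC ovary (SD, n = 4 each). The 4 AC testes held 0.0591%, 0.0460%, 0.0569% and 0.0524%, against 0.0117%, 0.0223%, 0.0203% and 0.0124% in the 4 AC ovaries, so the 2 gonads did not overlap. In the other testes the share was 0.0396% ± 0.00672 in TM (SD, n = 4) and 0.0531% and 0.0892% in the 2 MZ libraries. Every TM library (0.0300% to 0.0457%) lay below every AC testes library, though the lowest of these, at 0.0460%, was close. As a share of TE counts, Pao rows held 3.07% in TM testes, 4.54% in MZ testes, 3.45% in AC testes and 1.47% in AC ovary. On that share TM testes (2.77% to 3.23%) and AC testes (2.85% to 3.88%) overlapped. Of the 83 rows, 77 had more than 10 counts in at least 2 libraries, against 93.9% of all TE rows. Pao-18 LTR had no count in any library, 3 rows had none in any AC ovary, and 22 rows had none in at least 1 AC ovary.

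**Figure D1:**
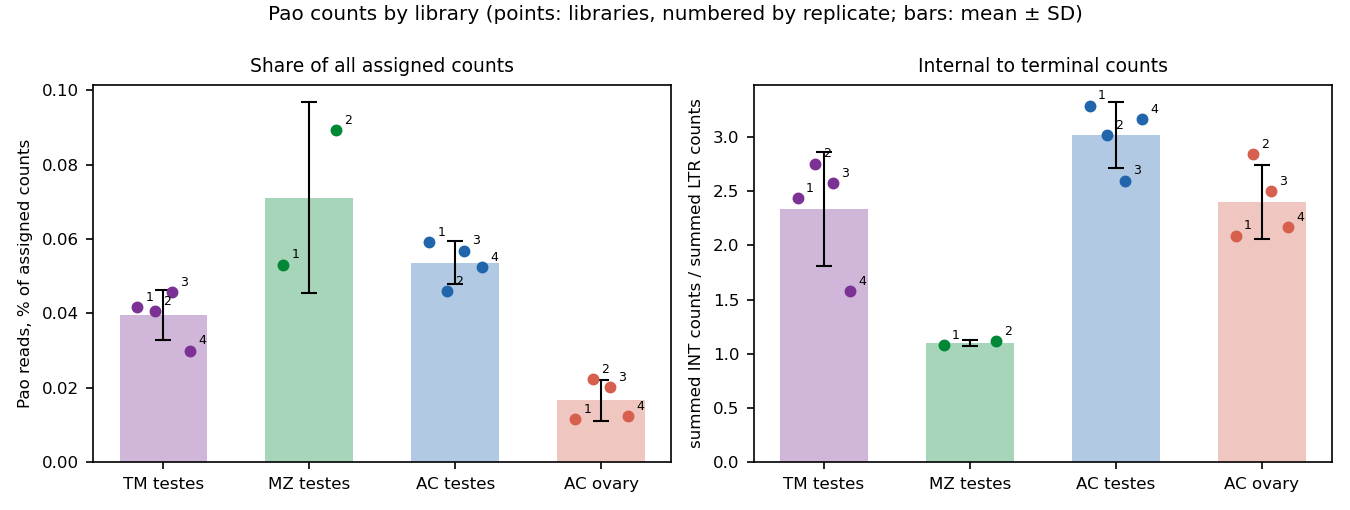
Pao rows as a share of assigned counts, and the summed INT to LTR count ratio, for TM, MZ and AC testes and AC ovary. Points are libraries numbered by replicate, and bars the group mean with its SD. The 4 AC testes lie at 0.0460% to 0.0591% of assigned counts, all above the 4 AC ovaries at 0.0117% to 0.0223%.

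The counts were concentrated in a few families, and these were not the same in each group. Pao-43 took 18.4% to 25.7% of the Pao counts in TM testes, 33% and 41.7% in MZ testes, 21.0% to 36.8% in AC testes and 4.44% to 27.8% in AC ovary. Pao-46 took 10.9% to 16% in TM testes, 5.46% and 13.7% in MZ testes and 3.29% to 4.68% in AC testes, against 25.1% to 42.0% in AC ovary. Pao-46 was thus a larger share of the Pao pool in every AC ovary than in any testes library. INT rows together outnumbered LTR rows 1.57 to 2.75 times in TM testes, 1.08 and 1.12 times in MZ testes, 2.59 to 3.28 times in AC testes and 2.09 to 2.84 times in AC ovary. The MZ ratio was below that of all 12 other libraries, and rested largely on the LTR rows of Pao-43 and Pao-46. Of the 6735 LTR counts in MZ replicate 1, Pao-43 LTR held 3575 and Pao-46 LTR 935. Of the 10249 in MZ replicate 2 they held 5461 and 974. Row lengths were not used, so ratios are compared between libraries and not read as relative numbers of transcripts.

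**Figure D2:**
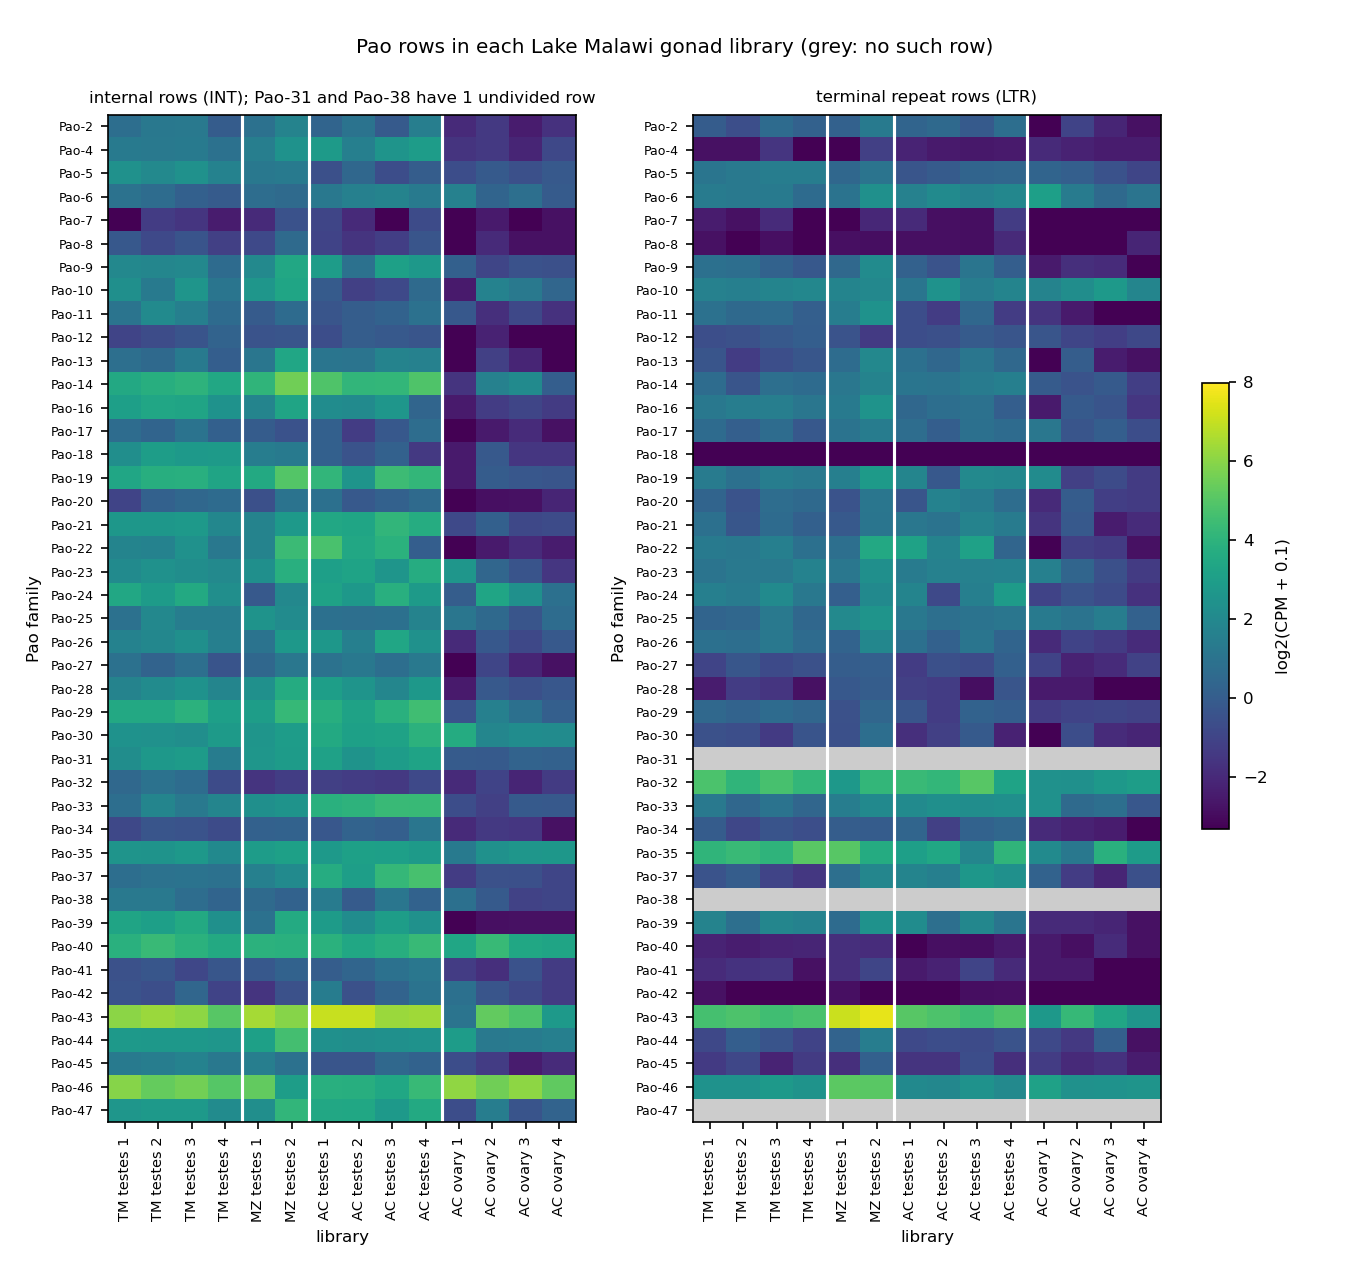
Level of each Pao row as log2(CPM + 0.1) in the 14 Lake Malawi libraries, INT and undivided rows left and LTR rows right, with TM, MZ and AC testes before AC ovary. Most INT rows are dark in AC ovary, Pao-46 INT is an exception, and the LTR rows of Pao-43 and Pao-46 are brightest in the 2 MZ libraries.

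The comparison of AC testes with AC ovary asks in which gonad the elements are transcribed more. Pao rows were mostly higher in testes. Of the 83 rows, 66 passed the filter on low counts, and 35 were higher and 1 lower in testes at an adjusted p under 0.05 (edgeR quasi-likelihood test with Benjamini-Hochberg adjustment over all genes and TE rows). The background was 22.8% of all genes and TE rows called in either direction, 13.5% called higher and 9.36% lower. Among LTR class rows outside Pao 41% were called higher, and the difference between Pao rows and these was not tested. The calls were 22 higher and 1 lower among the 37 INT rows tested, 12 higher and none lower among the 27 LTR rows tested, and 1 of the 2 undivided rows. The 17 rows not tested were 4 INT and 13 LTR rows. With no filter at all, the mean was higher in testes for 75 of the 83 rows. In 43 rows every testes library lay above every ovary library and in 1 row every testes library lay below, against 18.6% and 14.5% of all genes and TE rows tested. Scaled on TE counts alone, where the median gene moved down by 1.04 on the log2 scale, the split was 29 higher and 6 lower. The background there was 45.3% of all TE rows called in either direction. Without AC ovary replicate 1, the library with the low scaling factor, the split was 45 higher and 1 lower, with a background of 36.9%.

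The largest differences were near-absences in ovary. Pao-39 INT had 7.41, 4.42, 7.68 and 5.27 CPM in the 4 AC testes, against 0, 0.0379, 0.0414 and 0.0412 CPM in the 4 AC ovaries. The ovary values rest on 3 counts in all, and the ratio of the summed counts, scaled for depth, was 183 (95% exact interval 62.3 to 889, counting error only). The adjusted p of this row was 3.34e-04 (edgeR). Its LTR row followed, with 4.38, 1.64, 3.66 and 2.02 CPM in AC testes against 0.153, 0.152, 0.124 and 0.0412 CPM in AC ovary (log2 fold change 4.71 ± 0.64 SE, adjusted p = 0.00163, edgeR). Pao-22 INT varied more among testes, at 26.6, 11.1, 15 and 0.955 CPM in AC testes against 0, 0.0758, 0.165 and 0.0823 CPM in AC ovary. Even its lowest testes library, replicate 4, was above all ovaries, and the log2 fold change was 7.29 ± 1.14 (SE, adjusted p = 0.00279, edgeR). Its LTR row was also higher in testes, by 5.06 ± 1.02 (SE, adjusted p = 0.00843, edgeR). AC testes replicate 4 is the AC testes library with the lowest sum of testes markers, and whether the Pao-22 value goes with this was not tested.

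Pao-37 and Pao-33 had INT rows above 8 CPM in every AC testes library and below 1 CPM in every AC ovary. Pao-37 INT had 13, 8.04, 18.4 and 25.9 CPM in AC testes against 0.307, 0.606, 0.579 and 0.412 CPM in AC ovary (log2 fold change 5.15 ± 0.52 SE, adjusted p = 5.89e-04, edgeR). Its LTR row was higher in testes too, by 3.21 ± 0.68 (SE, adjusted p = 0.0102, edgeR). Pao-33 INT had 14.5, 16.1, 20.5 and 19.9 CPM in AC testes against 0.537, 0.341, 0.827 and 0.782 CPM in AC ovary (log2 fold change 4.91 ± 0.44 SE, adjusted p = 4.28e-04, edgeR). The LTR row of Pao-33 behaved differently from its interior. It had 4.19, 4.87, 4.59 and 4.93 CPM in AC testes against 5.22, 1.4, 1.65 and 0.741 CPM in AC ovary. The log2 fold change of 1.13 did not pass the test (adjusted p = 0.198, edgeR). Ovary replicate 1 was above every testes library in CPM only after division by its scaling factor of 0.621. Before that it had 68 counts among 20973400 assigned, against 109 to 138 among 23631390 to 25642737 in AC testes. Per assigned count it thus lay below every testes library. Pao-14 INT, among the 5 most abundant rows, was at 29.3, 17.3, 18.1 and 29.8 CPM in AC testes and 0.23, 3.03, 4.22 and 0.947 CPM in AC ovary (log2 fold change 3.55 ± 0.76 SE, adjusted p = 0.0104, edgeR).

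Pao-43, the most abundant family in testes, was higher in testes but less securely. Its INT row had 134, 133, 79.5 and 83 CPM in AC testes against 1.92, 38.8, 28.2 and 6.79 CPM in AC ovary, with the 4 ovaries spread widely. The groups did not overlap, and the log2 fold change was 2.59 ± 0.77 (SE, adjusted p = 0.0403, edgeR). Its LTR row had 33.1, 28.8, 22.3 and 29.5 CPM in AC testes against 6.45, 18.9, 10.2 and 5.93 CPM in AC ovary (log2 fold change 1.54 ± 0.41 SE, adjusted p = 0.0271, edgeR). Both calls were lost on leaving out AC ovary replicate 3 or 4 or any of the 4 AC testes, with adjusted p up to 0.0969 for INT and 0.0839 for LTR (edgeR). Pao-32 LTR had 20.6, 18.2, 32.8 and 9.32 CPM in AC testes against 5.14, 5, 6.37 and 7.74 CPM in AC ovary (log2 fold change 1.86 ± 0.45 SE, adjusted p = 0.0172, edgeR), and lost its call without AC testes replicate 1 (adjusted p = 0.0512, edgeR) or 3 (adjusted p = 0.0555, edgeR).

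Pao-46 INT was the only Pao row called lower in testes, while 7 of the 83 rows had a lower mean there. It had 14.1, 13.8, 10.6 and 19.6 CPM in AC testes against 70.4, 47, 66.5 and 37.9 CPM in AC ovary, with every testes library below every ovary library. The log2 fold change was -1.86 ± 0.31 (SE, adjusted p = 0.00328, edgeR), and the call held in each of the 14 alternative settings tried. Its own LTR row did not pass the test, at 4.11, 3.69, 5.32 and 3.97 CPM in AC testes against 8.75, 5.23, 5.29 and 5.64 CPM in AC ovary (log2 fold change -0.45, adjusted p = 0.41, edgeR).

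**Figure D3:**
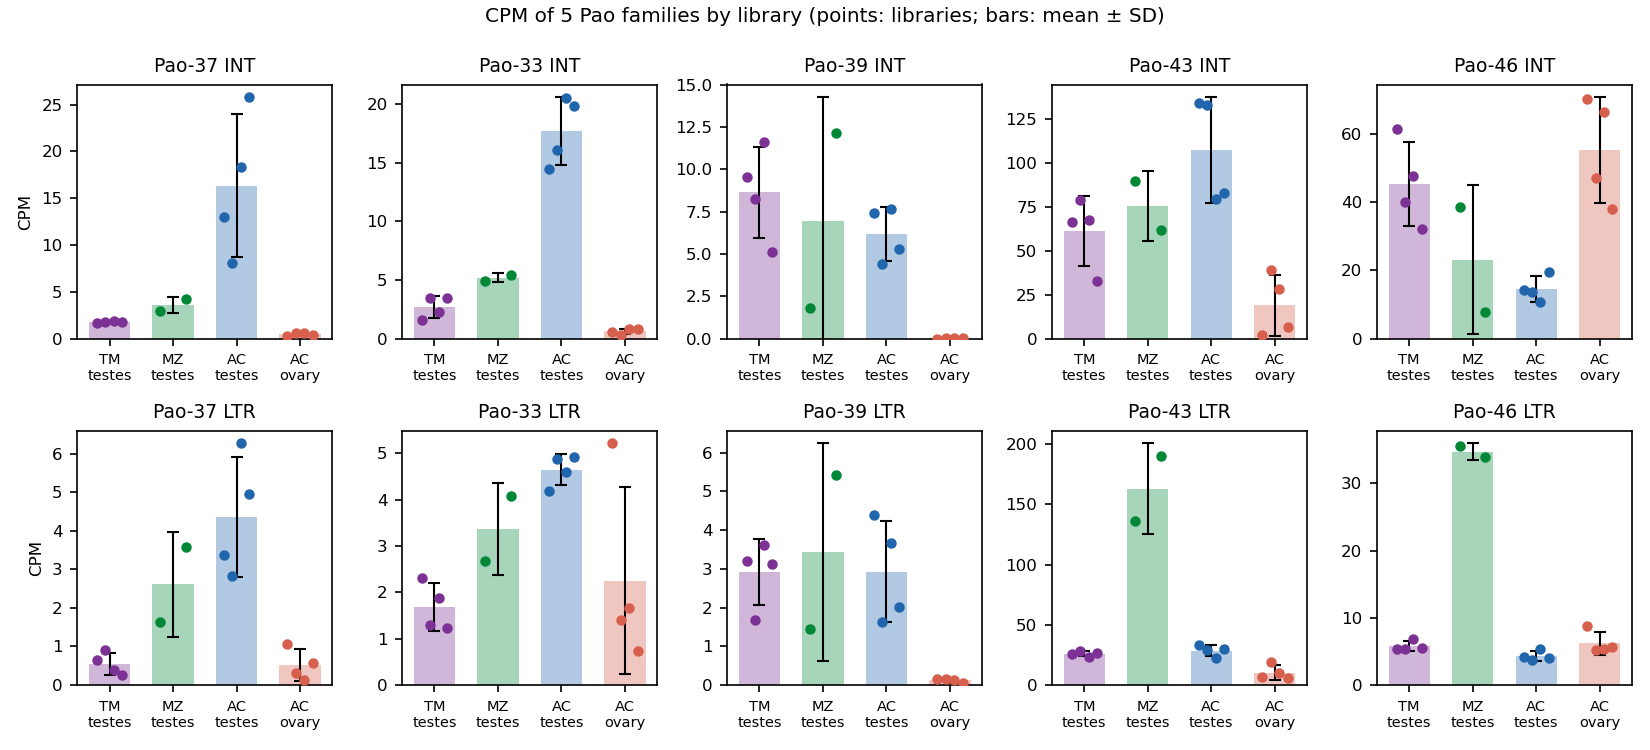
CPM of the INT row (top) and LTR row (bottom) of Pao-37, Pao-33, Pao-39, Pao-43 and Pao-46 in TM, MZ and AC testes and AC ovary; points are libraries and bars the group mean with its SD, on axes that start at 0 and differ between panels. Pao-46 INT is the row with every AC ovary (37.9 to 70.4 CPM) above every AC testes library (10.6 to 19.6 CPM). The LTR rows of Pao-43 and Pao-46 stand highest in MZ.

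The interior and the repeat of a family did not always move by the same amount. Over all 40 families with both parts, the 2 rows were both called higher in testes in 10, only the INT row in 12, only the LTR row in 2 and neither in 16. No family had its parts called in opposite directions. Rows that were not tested count as not called here, and these were more often LTR rows. Both parts were tested in 25 families. In all 25 the 2 rows changed in the same direction, and in 20 the INT log2 fold change was above that of the LTR row. The median log2 ratio of testes to ovary means, with 0.1 CPM added, was 2.5 over all 41 INT rows and 1.06 over all 40 LTR rows. Over all 83 Pao rows it was 1.51, beside 0.69 over the other TE rows, 0.83 over the other LTR class rows and 0.01 over genes. The other LTR class rows were not split by part, so 1.51 is the value to set beside theirs. The INT ratio was above the LTR ratio in 33 of the 40 families. With 1 CPM added, which damps low rows, the medians of INT and LTR rows were 0.92 and 0.40. The INT ratio was still above in 35 families. The ratio of INT to LTR counts was tested within each library with limma in families with enough counts, where the spread of both rows enters. Of 28 Pao families tested, 7 had a higher ratio in testes and none a lower one. The background was 29.7% called higher and 30.7% called in either direction among all 101 LTR families tested. The share of Pao families called was thus below the background, and a changed ratio was not particular to Pao. With a pseudocount of 5 the calls were 13 higher and 1 lower, and without AC ovary replicate 1 they were 9 higher and 1 lower. Among the 10 Pao families with a mean of at least 50 counts 1 was higher. No background is given for these settings.

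Pao-12 and Pao-33 had the largest differences of this kind. Pao-12 had INT to LTR count ratios of 1, 1.58, 0.925 and 1 in AC testes against 0.0526, 0.304, 0.0588 and 0.0435 in AC ovary, that is as many INT as LTR counts in testes and few in ovary (difference of log2 ratio 3.78 ± 0.70 SE, adjusted p = 0.00348, limma). Its INT row rests on 80 counts in all AC testes and 3 counts in all AC ovaries. Pao-33 had ratios of 3.45, 3.29, 4.46 and 4.02 in AC testes against 0.109, 0.253, 0.506 and 1.05 in AC ovary (difference 3.44 ± 0.76 SE, adjusted p = 0.00648, limma). The other families were Pao-29 (2.56, adjusted p = 0.00995, limma), Pao-39 (2.44, adjusted p = 0.0103), Pao-17 (2.74, adjusted p = 0.0181), Pao-27 (3.01, adjusted p = 0.0328) and Pao-16 (1.77, adjusted p = 0.044). The calls of Pao-27 and Pao-16 were each lost on leaving out any of 5 single libraries, with adjusted p up to 0.0822 and 0.138 (limma).

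**Figure D4:**
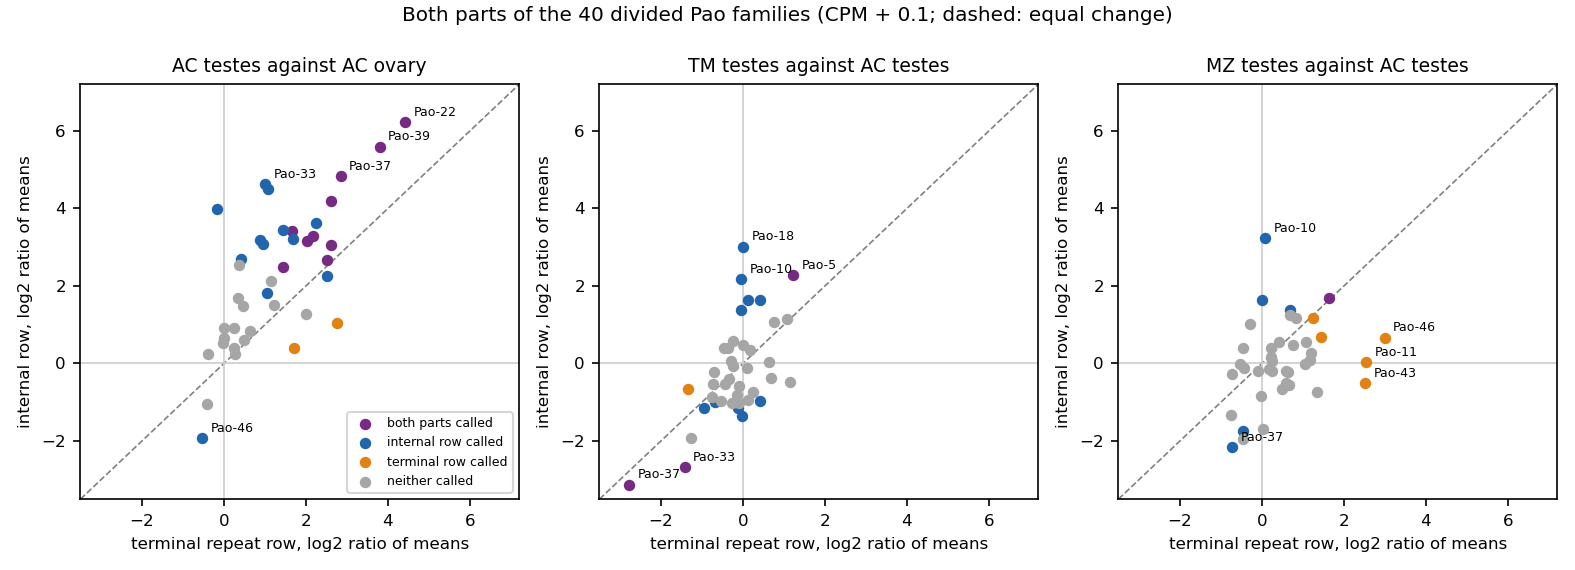
Log2 ratio of group mean CPM (0.1 CPM added) of the INT row against that of the LTR row for the 40 divided families, in AC testes over AC ovary, TM over AC testes and MZ over AC testes; colours show which parts were called and the dashed line marks equal change. In AC testes over AC ovary 33 of the 40 families lie above the line.

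The 3 species' testes were then compared, to ask how Pao transcripts differ between closely related fish. The AC testes serve as the reference of both TM and MZ, so these comparisons share libraries. In TM testes 7 Pao rows were higher and 10 lower than in AC testes among 77 tested, against a background of 8.87% higher, 9.93% lower and 18.8% in either direction. The 6 rows not tested were the LTR rows of Pao-4, Pao-7, Pao-8, Pao-18, Pao-40 and Pao-42. In MZ testes 10 rows were higher and 2 lower than in AC testes, against a background of 5.17%, 3.73% and 8.9%. In TM testes 1 row was higher and 8 lower than in MZ testes, against a background of 3.77%, 6.45% and 10.2%. Other LTR class rows were called in either direction in 30.9%, 19.5% and 14.4% of cases in these 3 comparisons. For MZ against AC, scaling on TE counts alone gave a split of 7 higher and 9 lower, with a background of 15.3% of TE rows. For TM against MZ that split was 4 higher and 6 lower, with a background of 9.28%. Without MZ replicate 2, which had the higher Pao share, only 1 MZ library was left, and calls are not counted here. The medians without it are given below.

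Pao-37 and Pao-33, whose INT rows were far higher in AC testes than in AC ovary, had the largest falls in TM against AC testes. Pao-37 INT had 1.63, 1.8, 1.91 and 1.77 CPM in TM testes and 2.97 and 4.17 CPM in MZ testes, against the 8.04 to 25.9 CPM in AC testes given above. The log2 fold change was -3.17 ± 0.34 for TM (SE, adjusted p = 1.59e-04) and -2.17 ± 0.43 for MZ (SE, adjusted p = 0.0111, edgeR). Pao-33 INT had 1.58, 3.43, 2.27 and 3.46 CPM in TM testes and 4.92 and 5.46 CPM in MZ testes, all below the lowest AC testes library at 14.5 CPM. Its log2 fold change was -2.70 ± 0.28 for TM (SE, adjusted p = 1.12e-04) and -1.76 ± 0.35 for MZ (SE, adjusted p = 0.011, edgeR). TM and MZ did not pass the test against each other for either INT row (log2 fold change -1, adjusted p = 0.122 and -0.94, adjusted p = 0.0816, edgeR).

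The LTR rows of these families fell in TM as well, which made them the only families with both parts called lower than in AC. Pao-37 LTR had 0.65, 0.9, 0.398 and 0.253 CPM in TM testes and 1.64 and 3.58 CPM in MZ testes, against 3.38, 2.82, 6.28 and 4.97 CPM in AC testes. It fell by 2.96 ± 0.46 in TM against AC on the log2 scale (SE, adjusted p = 0.00132, edgeR), while MZ against AC did not pass (log2 fold change -0.71, adjusted p = 0.428, edgeR). Against MZ it was also lower in TM (log2 fold change -2.25 ± 0.51 SE, adjusted p = 0.0184, edgeR), a call lost without MZ replicate 2 (log2 fold change -1.51, adjusted p = 0.161, edgeR) or TM replicate 3 (adjusted p = 0.0591, edgeR). Pao-33 LTR had 2.32, 1.29, 1.87 and 1.22 CPM in TM testes against 4.19 to 4.93 CPM in AC testes (log2 fold change -1.45 ± 0.28 SE, adjusted p = 0.00498, edgeR). The other rows that fell in TM against AC were INT rows of Pao-4, Pao-41, Pao-21, Pao-6 and Pao-30, with log2 fold changes of -1.37 to -0.97, and Pao-13 LTR at -1.47. Among these, only Pao-30 INT was called without each single library in turn. Pao-4 INT was lost without TM replicate 4 (adjusted p = 0.0503, edgeR), Pao-21 INT without AC testes replicate 3 or TM replicate 4 (adjusted p up to 0.0583, edgeR), and Pao-41 INT and Pao-6 INT without any of 6 and of 5 single libraries (adjusted p up to 0.095 and 0.0901, edgeR). Pao-13 LTR lost its call without AC testes replicate 1 or 3 or TM replicate 2 or 3 (adjusted p up to 0.0743, edgeR).

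Other families were higher in TM testes, and 6 of these 7 rows were INT rows. Pao-18 INT had 4.79, 7.8, 6.92 and 7.18 CPM in TM testes and 2.67 and 2.33 CPM in MZ testes, against 0.999, 0.647, 1.03 and 0.267 CPM in AC testes, with no overlap between the species. It rose by 3.18 ± 0.39 in TM (SE, adjusted p = 3.09e-04) and by 1.75 ± 0.43 in MZ (SE, adjusted p = 0.029, edgeR), the MZ call being lost on leaving out either MZ library, AC testes replicate 2 or TM replicate 1 or 3 (adjusted p up to 0.0711, edgeR). Pao-5 INT had 5.16, 3.9, 5.21 and 3.17 CPM in TM testes and 2.21 and 2.4 CPM in MZ testes, against 0.576, 1.26, 0.532 and 0.917 CPM in AC testes. Pao-5 was the only family with both parts called higher in TM than in AC, by 2.42 ± 0.34 for INT (SE, adjusted p = 7.46e-04) and 1.32 ± 0.30 for LTR (SE, adjusted p = 0.0115, edgeR). Pao-45 INT was higher in TM as well, at 2.44, 2.7, 3.14 and 2.2 CPM in TM testes against 0.691, 0.685, 1.33 and 1.07 CPM in AC testes (log2 fold change 1.48 ± 0.31 SE, adjusted p = 0.00711, edgeR).

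Pao-32 INT was the only Pao row called higher in TM than in MZ. It had 1.3, 1.8, 1.51 and 0.507 CPM in TM testes, against 0.229 and 0.313 CPM in MZ testes (log2 fold change 2.22 ± 0.59 SE, adjusted p = 0.0358, edgeR). The call was lost on leaving out either MZ library, AC testes replicate 1 or TM replicate 1, 2 or 3 (adjusted p up to 0.103, edgeR). Against the 0.266 to 0.458 CPM of AC testes it was higher in TM by 1.90 ± 0.44 (SE, adjusted p = 0.0123, edgeR).

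Pao-10 differed between species in its interior alone. Pao-10 INT had 4.96, 2.44, 5.97 and 1.98 CPM in TM testes and 6.06 and 10 CPM in MZ testes, against 0.845, 0.343, 0.465 and 1.41 CPM in AC testes. It was higher by 2.34 ± 0.50 in TM (SE, adjusted p = 0.00779) and by 3.41 ± 0.56 in MZ (SE, adjusted p = 0.00444, edgeR). Pao-10 LTR lay between 2.04 and 5.33 CPM in all 10 testes libraries, with log2 fold changes of -0.03 in TM and 0.10 in MZ that did not pass the test (adjusted p = 0.966 and 0.906, edgeR). The INT to LTR ratio of Pao-10 was accordingly higher in TM (difference of log2 ratio 2.31, adjusted p = 0.0133, limma) and in MZ (3.34, adjusted p = 0.00556, limma). The TM difference was 2.12 without TM replicate 1 (adjusted p = 0.0526, limma), and the MZ difference 3.08 without MZ replicate 2 (adjusted p = 0.0727, limma). In AC ovary Pao-10 INT was at 0.0767, 3.11, 2.32 and 1.24 CPM, a spread that covers the AC testes.

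In MZ the most abundant families differed in their repeats. Pao-43 LTR had 25.4, 28.2, 23.2 and 26.4 CPM in TM testes and 136 and 190 CPM in MZ testes, against the 22.3 to 33.1 CPM in AC testes given above. It was higher in MZ than in AC by 2.54 ± 0.20 (SE, adjusted p = 4.03e-05) and lower in TM than in MZ, at -2.66 ± 0.20 (SE, adjusted p = 2.87e-05, edgeR). Pao-43 INT had 66.3, 78.8, 67.2 and 32.9 CPM in TM testes and 89.6 and 61.6 CPM in MZ testes against 79.5 to 134 CPM in AC testes, and neither species passed the test against AC (log2 fold change -0.80 in TM, adjusted p = 0.0655, and -0.51 in MZ, adjusted p = 0.395, edgeR). Pao-46 showed the same division. Its LTR row had 5.36, 5.4, 6.88 and 5.49 CPM in TM testes and 35.6 and 33.9 CPM in MZ testes, against 3.69 to 5.32 CPM in AC testes, and was lower in TM than in MZ by a log2 fold change of -2.58 ± 0.22 (SE, adjusted p = 6.34e-05, edgeR). Its INT row had 38.6 and 7.75 CPM in MZ testes, so that MZ replicate 1 was above and replicate 2 below all AC testes, and did not pass the test (log2 fold change 0.65, adjusted p = 0.428, edgeR).

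The division was also seen in the ratio of the parts. Pao-43 had 1.24 to 2.89 INT counts per LTR count in TM testes, 0.658 and 0.324 in MZ testes and 2.81 to 4.61 in AC testes. The difference of log2 ratio was -3.00 ± 0.44 for MZ against AC (SE, adjusted p = 7.40e-04) and 2.29 ± 0.44 for TM against MZ (SE, adjusted p = 0.00255, limma). Pao-46 had ratios of 5.86 to 11.4 in TM testes, 1.08 and 0.229 in MZ testes and 2 to 4.91 in AC testes, and differences of -2.75 ± 0.55 for MZ against AC (SE, adjusted p = 0.0047) and 3.94 ± 0.55 for TM against MZ (SE, adjusted p = 3.67e-04, limma). Without MZ replicate 2, the Pao-43 difference of TM against MZ was 1.78 (adjusted p = 0.053, limma) and the Pao-46 difference of MZ against AC was -1.63 (adjusted p = 0.0742, limma). In all, the ratio of 1 family was higher and of 4 lower in MZ than in AC among 31 Pao families tested. The background was 15.3% of all 111 LTR families called in either direction, and the Pao share was close to it. The others lower in MZ were Pao-11 (-2.80, adjusted p = 0.0129, limma) and Pao-30 (-2.39, adjusted p = 0.039, limma), which lost their calls without either MZ library, Pao-30 also without AC testes replicate 1 or 4 or any TM library (adjusted p up to 0.25, limma).

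The ratio differed in 3 of 31 Pao families between TM and AC, a smaller share than the background of 21.6%. Beside Pao-10 these were Pao-29, lower in TM (-1.22, adjusted p = 0.0133, limma), and Pao-35, lower in TM (-1.78, adjusted p = 0.0372, limma) but not without AC testes replicate 3 or TM replicate 1, 2 or 4 (adjusted p up to 0.106, limma). Between TM and MZ 4 of 31 families had a higher ratio in TM, a share close to the background of 12.6%. Beside Pao-46 and Pao-43 these were Pao-11 (2.57, adjusted p = 0.0223, limma) and Pao-17 (1.81, adjusted p = 0.0336, limma). Pao-11 lost its call without either MZ library or TM replicate 2 or 3, and Pao-17 without MZ replicate 2 or any TM library (adjusted p up to 0.298, limma).

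**Figure D5:**
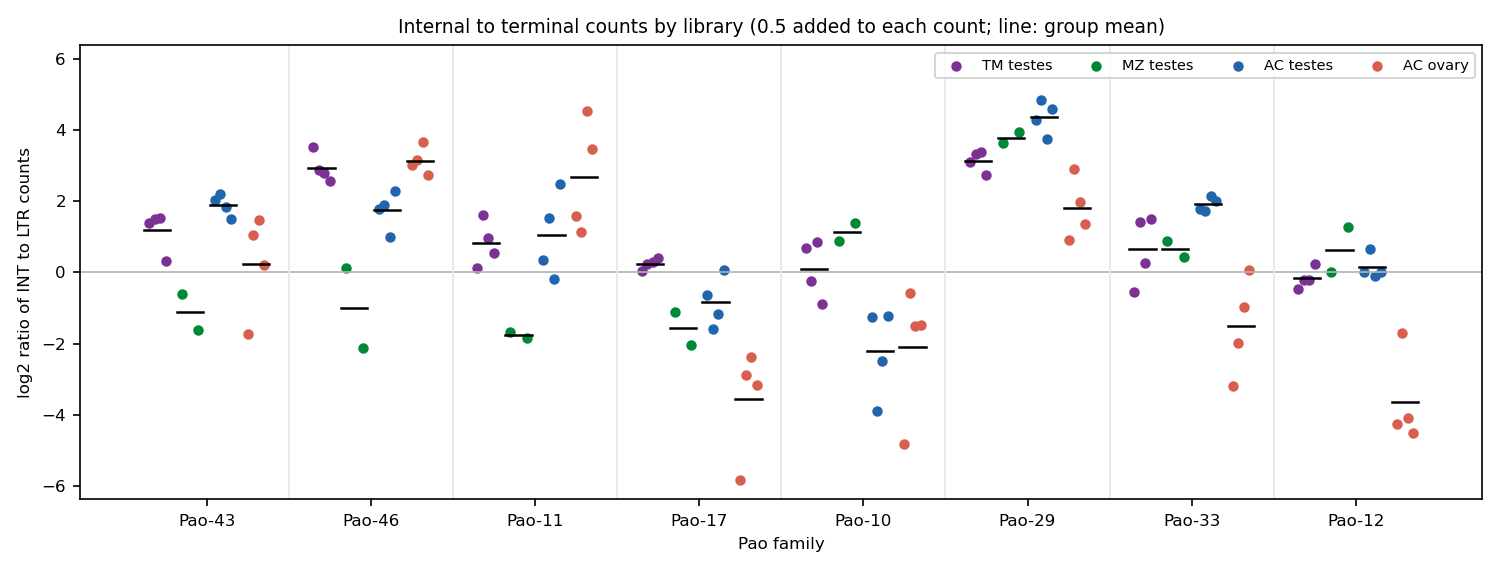
Log2 ratio of INT to LTR counts (0.5 added to each count) of 8 Pao families in each library, with TM, MZ and AC testes before AC ovary; points are libraries and lines group means. For Pao-43 and Pao-46 the MZ points lie below all TM and AC testes, and for Pao-33 and Pao-12 the AC ovary points lie below all AC testes.

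Pao-46 INT, the row called lower in AC testes than in AC ovary, was higher in TM testes than in AC testes. It had 61.3, 39.9, 47.8 and 32.3 CPM in TM testes, against 10.6 to 19.6 CPM in AC testes, with no overlap (log2 fold change 1.66 ± 0.40 SE, adjusted p = 0.0156, edgeR). The call was lost without AC testes replicate 1 (log2 fold change 1.61, adjusted p = 0.0503, edgeR) or TM replicate 1 (1.42, adjusted p = 0.058, edgeR). Its LTR row did not pass the test (log2 fold change 0.45, adjusted p = 0.116, edgeR).

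Most of the remaining calls that involve MZ were lost when 1 of its 2 libraries was left out. Pao-11 LTR had 2.71 and 5.28 CPM in MZ testes against 0.538, 0.305, 1.26 and 0.306 CPM in AC testes (log2 fold change 2.73 ± 0.54 SE, adjusted p = 0.0115, edgeR), and without MZ replicate 2 the value was 2.11 (adjusted p = 0.0797, edgeR). Pao-44 INT had 8.46 and 24.5 CPM in MZ testes against 4.72 to 5.35 CPM in AC testes. Both parts of Pao-44 were higher in MZ than in AC, by 1.74 for INT (adjusted p = 0.0109) and 1.83 for LTR (adjusted p = 0.0361, edgeR), and without MZ replicate 2 these were 0.71 (adjusted p = 0.116) and 1.00 (adjusted p = 0.274, edgeR). The LTR call was also lost without AC testes replicate 1, 2 or 3 or TM replicate 1 or 3. Pao-5 INT (1.50, adjusted p = 0.0347, edgeR), Pao-16 LTR (1.52, adjusted p = 0.0327, edgeR) and Pao-25 LTR (1.30, adjusted p = 0.041, edgeR) were also higher in MZ than in AC, but were called in only 8, 10 and 5 of 17 settings. Without MZ replicate 2 they were at 1.39, 0.75 and 0.95 (adjusted p of 0.11, 0.269 and 0.185, edgeR), and each also lost its call without any of at least 5 other single libraries. Pao-25 LTR had 1.14, 1.29, 2.31 and 1.27 CPM in TM testes against 3.89 and 5.63 CPM in MZ testes, and was lower in TM (log2 fold change -1.66, adjusted p = 0.0136, edgeR), at -1.31 without MZ replicate 2 (adjusted p = 0.101, edgeR). Pao-44 INT was lower in TM than in MZ as well (-1.37, adjusted p = 0.0282, edgeR), a call lost without MZ replicate 2 (-0.33, adjusted p = 0.474, edgeR) or any TM library (adjusted p up to 0.0673, edgeR). Pao-13 was the family with both parts called lower in TM than in MZ. Its INT row had 1.67, 1.37, 2.43 and 0.929 CPM in TM testes against 2.1 and 10.3 CPM in MZ testes, and the groups overlapped. The log2 fold change was -1.97 ± 0.55 (SE, adjusted p = 0.0432, edgeR), and -0.33 without MZ replicate 2 (adjusted p = 0.755, edgeR). The call was also lost without AC testes replicate 1, 2 or 3 or any TM library (adjusted p up to 0.0983, edgeR). Pao-13 LTR was at -2.22 ± 0.46 (SE, adjusted p = 0.0131, edgeR), and at -1.36 without MZ replicate 2 (adjusted p = 0.148, edgeR). Pao-14 INT was at -1.30 ± 0.37 in TM against MZ (SE, adjusted p = 0.0482, edgeR), and at -0.32 without MZ replicate 2 (adjusted p = 0.632, edgeR), and was also lost without AC testes replicate 1, 2 or 3 or any TM library (adjusted p up to 0.11, edgeR).

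Over all members, including those not tested, the medians between species were smaller than 1 on the log2 scale. Over all 83 Pao rows together they were -0.24 for TM against AC, 0.18 for MZ against AC and -0.50 for TM against MZ. For TM against AC the median log2 ratio was -0.48 over INT rows and -0.10 over LTR rows, beside -0.05 over other TE rows. For MZ against AC it was 0.03 over INT rows and 0.46 over LTR rows, beside 0.37 over other TE rows, and without MZ replicate 2 these became -0.43 and -0.05. For TM against MZ it was -0.38 over INT rows and -0.63 over LTR rows, beside -0.39 over other TE rows, and without MZ replicate 2 these became 0.01 and -0.07. The INT ratio was above the LTR ratio in 18 of 40 families for TM against AC, in 13 of 40 for MZ against AC and in 27 of 40 for TM against MZ.

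Pao rows of the automatically named libraries gave the same comparison of testes with ovary in other annotations. In the table of AC with such names, 3 of the 5 Pao rows were higher in testes and none lower, with a background of 13% called higher. rnd-5_family-94 had 105, 52.2, 106 and 84.5 CPM in AC testes against 2.61, 15.8, 12.4 and 4.25 CPM in AC ovary (log2 fold change 3.30 ± 0.59 SE, adjusted p = 0.00494, edgeR). rnd-5_family-4932 had 40.1, 28.1, 50.6 and 58.5 CPM in AC testes against 4.78, 3.5, 1.96 and 1.95 CPM in AC ovary (log2 fold change 3.87 ± 0.43 SE, adjusted p = 9.38e-04, edgeR). The third was rnd-6_family-2422 (log2 fold change 4.63 ± 0.63 SE, adjusted p = 0.00178, edgeR), and rnd-5_family-3695 (0.88, adjusted p = 0.103) and rnd-6_family-479 (0.27, adjusted p = 0.675) did not pass. These are the same libraries counted again and are not further replicates.

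In AB and ON the Pao rows were also higher in testes, among many other rows. The single AB row, rnd-5_family-107, had 27.6, 11.3, 13.3 and 14.6 CPM in AB testes against 0.185, 0.698 and 0.228 CPM in AB ovary (log2 fold change 5.45 ± 0.59 SE, adjusted p = 2.86e-05, edgeR), where 38.7% of all rows and 73.2% of TE rows were called higher. In ON all 7 Pao rows were higher in testes, with log2 fold changes of 1.85 to 5.52, where 47.3% of all rows and 70.9% of TE rows were called higher. rnd-5_family-114 had 98.3, 117 and 106 CPM in ON testes against 2.10, 2.28 and 2.63 CPM in ON ovary (log2 fold change 5.52 ± 0.18 SE, adjusted p = 1.93e-07, edgeR). Pao rows took 0.0475% ± 0.00379 of assigned counts in ON testes and 0.00119% ± 3.11e-04 in ON ovary (SD, n = 3 each). Family names are given per genome, so no family was matched between species and no test between species was made.

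Genes that silence TEs in the germline were set beside these values. Of 25 symbols listed, 17 were found, as 20 genes. Among 18 tested, 10 were called higher in AC testes than in AC ovary and none lower, where 12.9% of all genes were called higher and 9.56% lower. Those called included asz1, a mitochondrial scaffold of piRNA production (log2 fold change 2, adjusted p = 0.00166, edgeR), piwil1, a Piwi protein that binds piRNAs (2.02 for the one of its 4 copies that was called, adjusted p = 0.0118, edgeR), and ddx4, the germ cell RNA helicase also called vasa (1.19, adjusted p = 0.00992, edgeR). The summed level of the list was 3374 to 3570 CPM in AC testes and 1504 to 2128 CPM in AC ovary. In TM against AC testes, 1 piwil1 copy (2.96, adjusted p = 5.92e-04, edgeR) and the maintenance DNA methyltransferase dnmt1 (0.59, adjusted p = 0.0199, edgeR) were higher and tdrd9, a Tudor domain helicase, was lower (-0.75, adjusted p = 0.00273, edgeR). These were 3 of 19 tested, where 18.7% of all genes were called in either direction. The piwil1 copy called in TM was a low one, at 2.7 to 3.5 CPM in TM testes and 0.228 to 0.764 CPM in AC testes. The paper regards the additional piwil1 copies of AC as a likely pseudogene and truncated forms that probably cannot bind piRNAs. Which of the paper's copies the low one is was not determined. The copy called in AC testes against ovary lay at 572 to 715 CPM in TM testes and 567 to 671 CPM in AC testes. It did not pass the test between TM and AC (log2 fold change 0.07, adjusted p = 0.777, edgeR). How reads were divided among the piwil1 copies was not examined, and the part of these genes in the Pao results was not tested.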

How the data were processed

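Poly-A selected, strand-marking mRNA libraries of gonads were sequenced and the authors deposited raw counts of genes and TE families. Per the paper's methods and the submitters' notes, reads were trimmed with Trimmomatic (0.39), aligned with STAR (2.5.4b) to the AC genome for all Lake Malawi species, and counted with TEtranscripts, which shares reads of several sites between copies. Rows are therefore sums over copies, and near-identical families can exchange reads. Deposited normalised counts and columns of other tissues were not used.

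The members and gene lists were chosen with earlier results of these data known. Counts were scaled by TMM over genes and TE rows and given as CPM. Rows were kept by filterByExpr and fitted with the robust quasi-likelihood model of edgeR (4.0.16, R 4.3.3) without a replicate term. The 3 testes groups shared 1 fit, and AC testes and ovary had another. Adjusted p-values (Benjamini-Hochberg) cover all rows of a fit, and a call is an adjusted p under 0.05. Ratios of INT to LTR counts, with 0.5 added to each, were fitted with limma (3.58.1). Figures and tables were made with Python (3.11.15). Named rows were the 5 with the most CPM, the up to 5 largest called changes each way per comparison with a mean of at least 1 CPM, families with a called ratio, Pao-43, Pao-46 and their partner rows. Counts of 5 or fewer are named in full, and Pao-25 and Pao-44 were named after their values were seen.

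Lake Malawi libraries held 20973400 to 26742599 assigned counts, those of AB 23219721 to 25010259 and those of ON 23293938 to 24418850. The labels give replicates of wild-type tissue and do not say that each is a separate fish. The paper's methods call them biological replicates, made from organ pieces of similar mass from size-matched fish of a species. The p-values measure the spread between these libraries. Same-numbered libraries did not deviate together (correlations of -0.21 to 0.261) and were not paired. Tested on simulated data with 200 changed rows, the AC testes and ovary fit recovered 16% of rows changed 4-fold, the TM and AC fit 58% and the ON fit 66%. Of rows changed 2-fold they recovered 0%, 15% and 17%. Far more rows were called in the real fits, so these shares do not measure the recovery there. The alternatives were DESeq2 (1.42.0), total-count scaling, scaling on TE rows alone, no filter, a mean of 50 counts, other pseudocounts, a replicate term and leaving out each library. No genome or element sequence was used here.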

Additional observations from a re-analysis of the deposited data

Results flagged for a closer look

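Within groups of 4 libraries, single libraries stood far from the other 3 in 14 of 176 row and group combinations, by a gap above the 95% limit of Dixon's test, which chance exceeds in about 1 in 20. AC ovary replicate 1 was such a library for Pao-30 INT (12.5 CPM, high), Pao-46 LTR (8.75 CPM, high), Pao-39 INT (0 CPM, low) and the INT to LTR ratio of Pao-30 (327, high). The last 2 rest on the floor of the counts. Pao-39 INT had 0 counts there against 1 in each other AC ovary. The Pao-30 ratio is 163 INT counts against 0 LTR counts, with 0.5 added to each. The Pao-46 LTR value is 114 counts among 20973400 assigned, divided by the scaling factor of 0.621. The other AC ovaries had 128 to 138 counts among 24195757 to 24623358 assigned. Before that division replicate 1 lay within their range per assigned count. AC ovary replicate 2 was high for Pao-12 INT (0.114 CPM, the others at 0), Pao-13 LTR (0.909 CPM) and the ratio of Pao-12 (0.304). Among AC testes, replicate 3 was high for Pao-45 LTR (0.532 CPM) and replicate 2 for the ratio of Pao-12 (1.58). Among TM testes, replicate 2 was low for Pao-14 LTR (0.685 CPM), replicate 3 high for Pao-46 LTR (6.88 CPM) and replicate 4 low for the ratio of Pao-43 (1.24). In the table with automatic names, AC testes replicate 4 stood apart for rnd-5_family-3695 (8.54 CPM) and replicate 2 for rnd-6_family-479 (1.68 CPM). The reason for these values was not tested.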

How the results depend on the processing

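No called log2 fold change of a named row and no called ratio difference changed its direction under any setting. Rows that were not called could change theirs. In MZ against AC, Pao-46 INT had 38.6 CPM in MZ replicate 1 and 7.75 CPM in MZ replicate 2, on either side of the AC testes. Pairs of a named row and a setting were counted whether or not the row was called in the main fit. Of their log2 fold changes, 1280 kept their side of the threshold, 75 lost a call and 22 gained one. Of the called ratio differences, 193 kept the call and 40 lost it. Called in every setting tried were 25 of 36 Pao rows in AC testes against ovary, 10 of 17 in TM against AC, 4 of 12 in MZ against AC and 2 of 9 in TM against MZ, the last 2 being the LTR rows of Pao-43 and Pao-46. A mean of at least 50 counts left 22 called rows in AC testes against ovary, among fewer rows tested, with a background of 22.3%. Scaling on TE rows alone gave 26 for TM against AC, with a background of 34% of TE rows. DESeq2 gave 14 for TM against MZ, with a background of 16.4%. The background also changed with the library left out, from 12.8% to 36.9% in AC testes against ovary, so counts of calls are not compared between settings. Leaving out single libraries gave 29 to 46 called rows in AC testes against ovary. With both MZ libraries kept, it gave 14 to 19 in TM against AC, with backgrounds of 12.3% to 16.3%. In MZ against AC it gave 7 to 11, with backgrounds of 5.66% to 9.3%. In TM against MZ it gave 4 to 10, with backgrounds of 5.62% to 11.3%. The uncurated table gave 3 to 4, with backgrounds of 12.3% to 36.1%. For the ratios, a pseudocount of 5 gave 14 families in AC testes against ovary, 8 in TM against AC and 8 in MZ against AC. The mean of 50 counts gave 1, 3 in MZ against AC and 2 in TM against MZ, with fewer families tested. Leaving out single libraries gave 4 to 10, 1 to 8, 1 to 6 and 1 to 4 families in the 4 comparisons. Where this left 1 MZ library, it was assumed to vary like the other groups. No background is given for these ratio counts, so they are not read as results about Pao. Pao shares with TE counts as denominator were 3.07% in TM testes, 4.54% in MZ testes, 3.45% in AC testes and 1.47% in AC ovary, and without Pao-43 INT the AC testes share of assigned counts was 0.0419%. The cause of these changes was not tested. Added after seeing the data, a pseudocount of 1 CPM gave medians of 0.92 for INT and 0.40 for LTR rows in AC testes against ovary, and TE scaling gave 1.63 and 0.33.

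With the replicate number as a block, 26 Pao rows were called in AC testes against ovary, 14 in TM against AC, 5 in MZ against AC and 2 in TM against MZ. The backgrounds were 11.8%, 13.3%, 3.02% and 4.13% in the same order. The replicate numbers do not pair the libraries, so this is no measure of a weaker effect. The 6 rows below the filter in testes and the 17 in AC gonads had too few counts to be tested. The reason for their low counts was not tested. At an unadjusted p under 0.05 (edgeR), 41 of 66 rows passed in AC testes against ovary. No share of all genes and TE rows at that threshold is given, so this count is not read as a result about Pao.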
